A study of Mus musculus with 12 samples.

Results

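The genes described here are 10 regulators of the G1 phase of the cell cycle in mouse liver: the D-type cyclins Ccnd1, Ccnd2 and Ccnd3, the cyclin-dependent kinase (CDK) inhibitors Cdkn1a, Cdkn1b, Cdkn2b and Cdkn2c, the transcription factor Myc, and the atypical E2F repressors E2f7 and E2f8. All probe sets annotated with exactly 1 of these symbols were taken, which gave 23 probe sets of the 45101 on the array, and 10 genes of the 18194 that the array names singly. Each value is a log2 intensity after robust multi-array averaging (RMA), so a difference of 1 is a doubling.

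RNA from 12 male mice on the 129J background was hybridized to 12 arrays, 1 per animal, with 3 animals per group. The groups, as labelled, were KO 24 months tumor (24-month-old Iqgap2-/- mice, with RNA from hepatocellular carcinomas), KO 6 months (6-month-old Iqgap2-/- mice, normal liver), WT 24 months and WT 6 months (wild-type mice of these ages, normal liver). The knockout is constitutive, so all cells of the KO animals lack the gene, and which exons were deleted is not given in the sources used here. Age, genotype and tumor tissue cannot be told apart in the KO 24 months tumor group, for which no adjacent non-tumor liver was analysed here. The study compared pairs of these groups to find genes that change with age and with tumor formation in the absence of IQGAP2.

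Iqgap2, the deleted gene, went against the labels of 6 arrays. On its brightest probe set the arrays labelled KO 24 months tumor had 12.15, 12.05 and 12.15, those labelled KO 6 months 8.12, 8.68 and 8.07, those labelled WT 24 months 12.28, 12.30 and 11.92, and those labelled WT 6 months 8.38, 8.24 and 8.33. The gene was thus high in the 3 arrays labelled KO 24 months tumor and low in the 3 labelled WT 6 months, while the other 6 arrays followed their labels. Afp, the fetal liver protein that serves as a marker of hepatocellular carcinoma, averaged 6.21 in the arrays labelled KO 24 months tumor, 6.74 in KO 6 months, 6.55 in WT 24 months and 12.79 in WT 6 months on 1416646_at. Within WT 24 months, replicate 2 had 7.62 on this probe set, against 6.2 and 5.85 in the other arrays. If WT 6 months had been written for KO 24 months tumor and the reverse, the same 4 pairs of arrays would be compared below under other names and with the sign turned. All groups below are therefore the arrays labelled so, and every direction rests on those labels.

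The hepatocyte marker list (7 genes, among them Alb and Apoa1) averaged between 14.02 and 14.33 in all 12 arrays, and its member Apob was called lower in KO 6 months than in WT 6 months (-1.04, adjusted p = 0.0161) and in KO 24 months tumor than in WT 24 months (-1.34, adjusted p = 0.0469, a call lost without WT 24 months replicate 3). Alb ran from 15.03 to 15.19 over the arrays, and whether so bright a signal can show a change in hepatocyte content was not tested. WT 24 months replicate 2 was the highest of its group for Afp (7.62 on 1416646_at), E2f7 (8.25) and Cdkn1a (9.62 on 1424638_at). WT 24 months replicate 3 stood apart by markers of other cell types. Its Kupffer cell and macrophage markers (7 genes) averaged 11.8, against 8.17 and 8.97 in the other arrays of its group, and its endothelial markers (8 genes) averaged 8.76, against 7.2 and 7.8. Neutrophil markers (4 genes) averaged 8.08 in this array, against 6.15 and 6.38, and in WT 6 months replicate 1 they averaged 8.32, against 5.54 and 6.29 in the other arrays of that group. Without WT 6 months replicate 1 the 8 probe sets called lower in KO 6 months than in WT 6 months, described below, numbered 5. They also numbered 5 without KO 6 months replicate 3, whose neutrophil markers averaged 5.35. The part of these cells in the values of the G1 genes was not tested. Pearson's r between replicates across probe sets was 0.9758 to 0.9863 in WT 24 months and 0.9874 or more in the other groups.

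In G1 a cell decides whether to divide. D cyclins bind CDK4 and CDK6, and these kinases phosphorylate the RB family of pocket proteins, which frees E2F factors to switch on genes of DNA replication. INK4 proteins (Cdkn2b encodes p15 and Cdkn2c p18) bind CDK4 and CDK6 and block them, CIP/KIP proteins (Cdkn1a encodes p21 and Cdkn1b p27) block CDK2 complexes, and E2F7 and E2F8 repress E2F target genes late in the cycle. MYC drives growth and ribosome production. Adult hepatocytes rest in quiescence, leave it after partial hepatectomy with induction of cyclin D1 and MYC, and are often polyploid, a state in which E2F7 and E2F8 are known to act.

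Promoter sequences are shown for Cdkn2c and E2f8, the only members that passed the test for a different age change by genotype label, and for E2f7, the paralog of E2f8. They are the 250 bases before 1 RefSeq start site of each gene on GRCm38.p6, read on the gene's strand, and capitals mark E2F-type letters (TTCCCGC or TTGGCGC on either strand). They lie at chr4:109666757-109667006 (minus strand), chr7:48881597-48881846 (minus strand) and chr10:110745189-110745438 (plus strand). Cdkn2c has another RefSeq start site, whose window at chr4:109665373-109665622 held no E2F-type match and is not shown.
Cdkn2c: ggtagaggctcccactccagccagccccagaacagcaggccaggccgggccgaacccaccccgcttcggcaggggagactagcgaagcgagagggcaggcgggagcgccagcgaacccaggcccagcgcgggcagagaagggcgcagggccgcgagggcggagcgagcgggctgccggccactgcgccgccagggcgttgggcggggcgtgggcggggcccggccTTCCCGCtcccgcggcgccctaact
E2f8: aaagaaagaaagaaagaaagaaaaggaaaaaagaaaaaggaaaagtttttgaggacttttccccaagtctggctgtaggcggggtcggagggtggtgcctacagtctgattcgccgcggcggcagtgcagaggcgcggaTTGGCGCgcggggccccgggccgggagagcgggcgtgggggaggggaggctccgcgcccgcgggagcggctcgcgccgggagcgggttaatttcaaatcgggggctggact
E2f7: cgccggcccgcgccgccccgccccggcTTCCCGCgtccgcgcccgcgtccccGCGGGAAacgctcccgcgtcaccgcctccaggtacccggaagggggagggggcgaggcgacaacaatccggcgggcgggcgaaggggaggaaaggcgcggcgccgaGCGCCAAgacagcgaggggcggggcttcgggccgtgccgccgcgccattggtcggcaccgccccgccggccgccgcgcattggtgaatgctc
The match in Cdkn2c begins at position -25 from the start site and that in E2f8 at -111, and E2f7 has matches at -223, -198 and -92. RefSeq promoter entries were matched for 7 of the 10 members (10 entries in all), and these 3 entries alone held an E2F-type match, whereas 5.62% of all 32851 promoter entries did. None of the 10 entries held the MYC/MAX E-box CACGTG or the TCF/LEF letters CTTTGAT on either strand, which 6.02% and 3.21% of all entries held. The GC box GGGCGG, whose letters can overlap an E2F-type match on the other strand, was found in 32.7% of all entries and in 6 of the 10 member entries (those shown of Cdkn2c and E2f7, that of Cdkn1b, 1 of Cdkn1a and both of Ccnd3), and not in that of E2f8. A match describes letters in this window and is not a measured binding site. Ccnd1, Ccnd2 and Myc are named only.

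Between the arrays labelled KO 6 months and WT 6 months, 8 of the 23 probe sets were lower in KO 6 months and 2 were higher after limma with Benjamini-Hochberg adjustment (called at an adjusted p of 0.05 or less), where 6.02% and 6.1% of all probe sets were called in these directions. The 8 belong to Ccnd1 (3 probe sets), Cdkn1a (2), Cdkn2c, Myc and E2f8, and the 2 to Ccnd2. With a fold of 3 added, 5 remained lower (the 3 of Ccnd1, and 1 each of Cdkn1a and Cdkn2c) and 0 higher, against 1.03% and 0.758% of all probe sets. Between WT 24 months and WT 6 months, 5 were lower in WT 24 months (3 of Ccnd1, 1 of Cdkn2c and 1 of E2f8) and 0 higher, against 4.95% and 3.79% of all probe sets. At an unadjusted p under 0.05, 2 were higher and 6 lower, with 20.7% of all probe sets past that p in either direction. A higher probe set, of E2f7, was called when arrays were centred on housekeeping genes. With the fold of 3 added, 3 remained lower, against 0.882% of all probe sets. Both comparisons use the same WT 6 months arrays, so their values are not independent of each other. With 3 arrays a group, an exact permutation test cannot give a two-sided p below 0.1, so calls rest on the spread that limma shares across probe sets.

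Between KO 24 months tumor and WT 24 months, limma called 0 of the 23 probe sets in either direction, against 0.122% higher and 0.115% lower of all probe sets. At an unadjusted p under 0.05, 0 were higher and 4 lower, where 15.3% of all probe sets passed that p in either direction. For KO 24 months tumor and KO 6 months, limma again called 0 in either direction, against 0.0177% higher and 0.00222% lower of all probe sets, and 3 were higher and 0 lower at the unadjusted p, which 6.11% of all probe sets passed. Few probe sets of any gene were called in these pairs (0.237% and 0.02%), and the absence of a call does not show that the groups were alike.

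**Figure D1:**
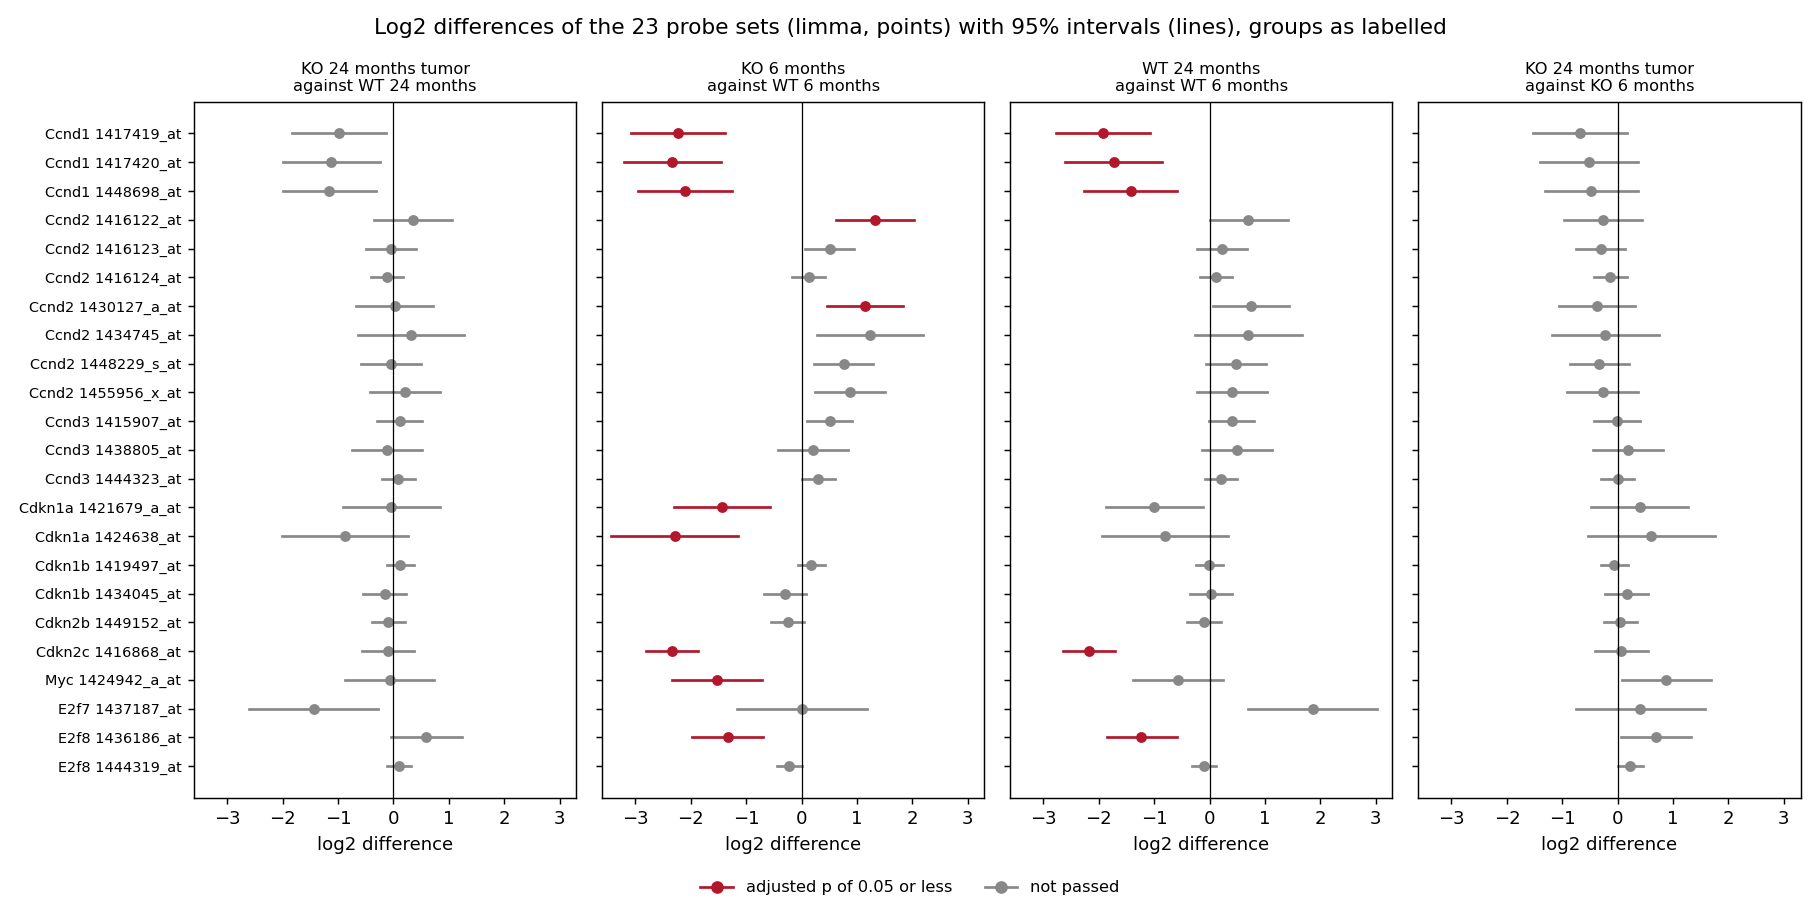
Log2 differences (x axis) of the 23 probe sets (rows) in 4 comparisons of labelled groups, as limma estimates with 95% intervals, with probe sets at an adjusted p of 0.05 or less in red. Calls appear only in the panels that contain the arrays labelled WT 6 months, 10 in KO 6 months against WT 6 months and 5 in WT 24 months against WT 6 months.

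Ccnd1, which encodes cyclin D1, was lower in both groups set against WT 6 months on all 3 of its probe sets. On 1417420_at its log2 intensity was 8.11, 8.01 and 8.23 in KO 24 months tumor, 8.10, 9.59 and 8.22 in KO 6 months, 8.81, 8.80 and 10.11 in WT 24 months, and 11.14, 11.12 and 10.66 in WT 6 months. The 3 WT 6 months arrays lay above all others, and 1 array each of KO 6 months and WT 24 months stood above its own group. KO 6 months differed from WT 6 months by -2.34 (SE 0.4, adjusted p = 0.00302 by limma), a 5.05-fold lower intensity, and WT 24 months differed from WT 6 months by -1.73 (SE 0.4, adjusted p = 0.0191). The range over the 3 probe sets was -2.34 to -2.1 in the first comparison and -1.93 to -1.42 in the second.

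Between KO 24 months tumor and WT 24 months the 3 probe sets of Ccnd1 differed by -1.16 to -0.98 without a call, with adjusted p values of 0.205 to 0.267. The highest array of WT 24 months was replicate 3, the one with the high Kupffer cell markers, and without it 1417420_at differed by -0.69 between KO 24 months tumor and WT 24 months (adjusted p = 0.486) and by -2.17 between WT 24 months and WT 6 months (adjusted p = 0.00275). The part of these cells in the value was not tested. Of the 3 calls in WT 24 months against WT 6 months, that of 1448698_at (adjusted p = 0.0414) was lost on leaving out any 1 of 9 arrays, that of 1417420_at on leaving out WT 6 months replicate 1 or 2 or WT 24 months replicate 1 or 2, and that of 1417419_at (log2 difference -1.93, adjusted p = 0.00919) in no case.

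Ccnd2, which encodes cyclin D2, was higher in KO 6 months than in WT 6 months on 2 of its 7 probe sets. On 1416122_at its log2 intensity was 7.61, 7.40 and 7.74 in KO 24 months tumor, 7.71, 8.06 and 7.77 in KO 6 months, 6.95, 6.62 and 8.11 in WT 24 months, and 6.91, 6.10 and 6.57 in WT 6 months. KO 6 months and WT 6 months did not overlap, and WT 24 months spanned nearly the whole range, with replicate 3 high. KO 6 months differed from WT 6 months by 1.32 (SE 0.32, adjusted p = 0.0209), a 2.5-fold higher intensity, and 1430127_a_at was also called (1.15, SE 0.32, adjusted p = 0.0361).

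The 7 probe sets of Ccnd2 were all above 0 in that comparison, from 0.13 to 1.32, and 2 of the 5 that were not called, 1416123_at and 1416124_at, were dim, with means of 3.99 and 3.62. Probe set 1448229_s_at may also match other genes and 1455956_x_at may cross-hybridize, and they differed by 0.76 and 0.88 without a call. The call of Ccnd2 depended on single arrays. Without KO 6 months replicate 2 or 3, or without WT 6 months replicate 2, 0 of the 7 were called in this comparison, and without WT 24 months replicate 3 or 2, 5 member probe sets were called higher. The shares of all probe sets called in these fits are not given here. Between WT 24 months and WT 6 months, 1416122_at differed by 0.7 (adjusted p = 0.242), and by 0.26 (adjusted p = 0.591) without WT 24 months replicate 3. In bulk liver, fewer cells of a type and less RNA per cell cannot be told apart, here and for every gene below.

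Ccnd3, which encodes cyclin D3, was not called with all arrays in the fit. On 1415907_at it had 8.94, 8.83 and 8.96 in KO 24 months tumor, 8.99, 9.14 and 8.61 in KO 6 months, 8.90, 8.35 and 9.15 in WT 24 months, and 8.42, 8.34 and 8.47 in WT 6 months. KO 6 months differed from WT 6 months by 0.51 (SE 0.19, adjusted p = 0.101, 95% interval 0.1 to 0.92), and WT 24 months overlapped WT 6 months. Without WT 24 months replicate 2, the lowest of its group, 1415907_at was called in both, at 0.51 (adjusted p = 0.0322) in KO 6 months against WT 6 months and 0.62 (adjusted p = 0.0324) in WT 24 months against WT 6 months, where it was 0.4 (adjusted p = 0.258) with all arrays. Its other 2 probe sets differed by 0.2 and 0.3 in KO 6 months against WT 6 months.

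**Figure D2:**
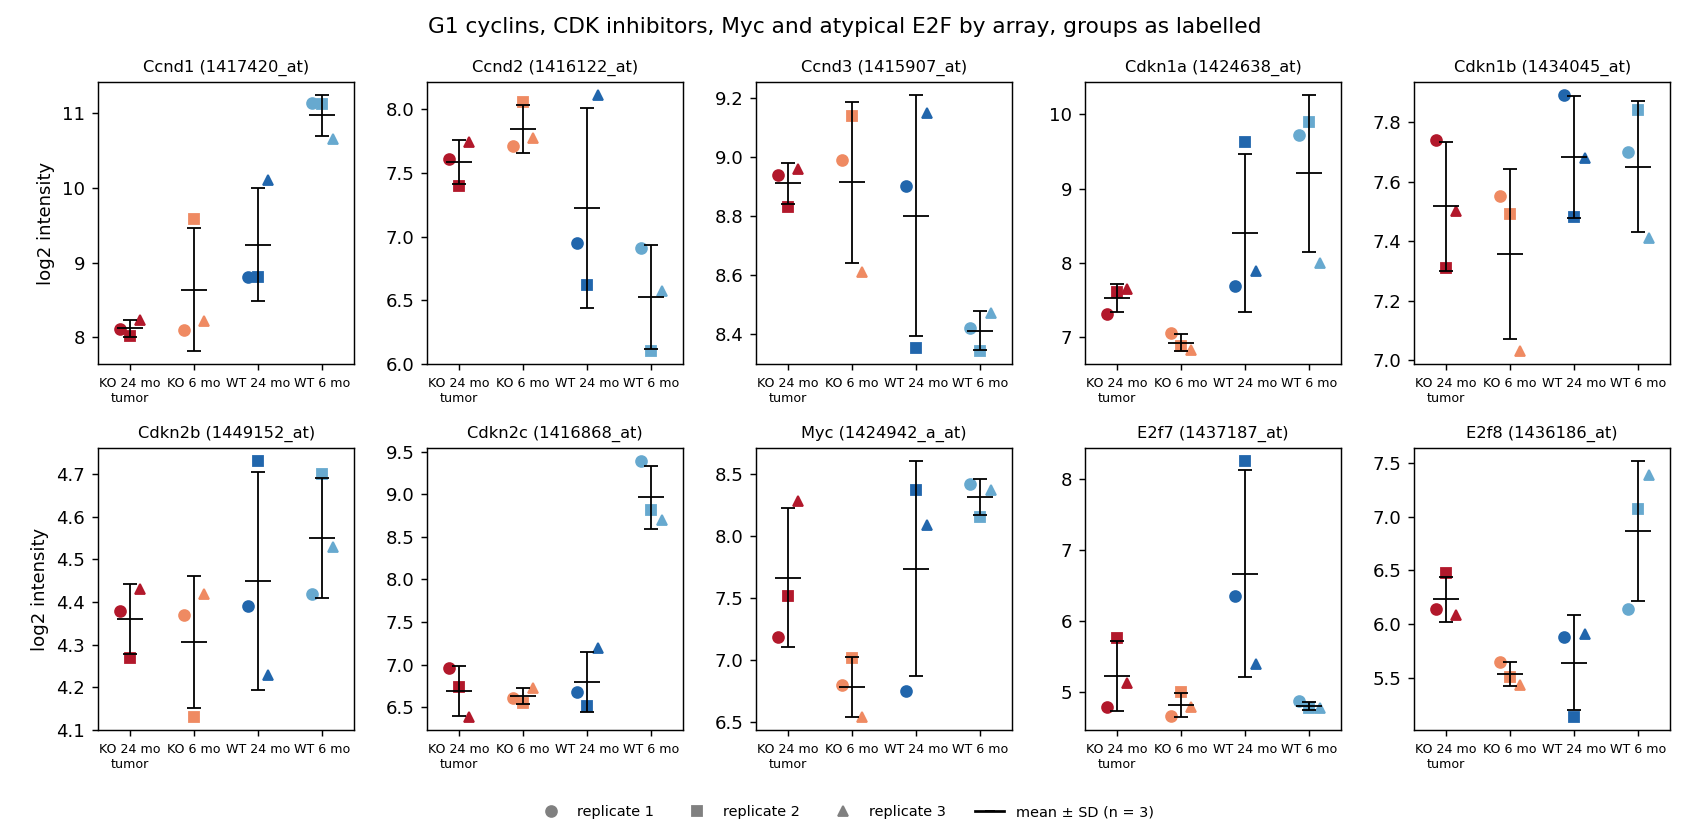
Log2 intensity (y axis) of 1 probe set per member in the 12 arrays by labelled group, with replicates as symbols and mean and SD (n = 3) as bars. The 3 WT 6 months arrays are the highest of all 12 for Ccnd1 (10.66 to 11.14) and Cdkn2c (8.70 to 9.39), and 1 WT 24 months array is far above the other arrays for E2f7 (8.25).

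Cdkn2c, which encodes the INK4 inhibitor p18, had the smallest adjusted p values of the 10 genes in both comparisons with WT 6 months. Its only probe set, 1416868_at, had 6.96, 6.74 and 6.38 in KO 24 months tumor, 6.61, 6.55 and 6.73 in KO 6 months, 6.68, 6.51 and 7.19 in WT 24 months, and 9.39, 8.81 and 8.70 in WT 6 months. The WT 6 months arrays were separate from the 9 others, and these 9 overlapped with each other. KO 6 months differed from WT 6 months by -2.34 (SE 0.22, adjusted p = 4.16e-05), a 5.05-fold lower intensity, and WT 24 months differed from WT 6 months by -2.17 (SE 0.22, adjusted p = 8.30e-05), a 4.51-fold lower intensity. Both calls held without any 1 array and in every other alternative run.

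Cdkn2b, which encodes p15, was dim and narrow, with 4.38, 4.27 and 4.43 in KO 24 months tumor, 4.37, 4.13 and 4.42 in KO 6 months, 4.39, 4.73 and 4.23 in WT 24 months, and 4.42, 4.70 and 4.53 in WT 6 months. Its differences were -0.1, -0.25 and -0.1 in KO 24 months tumor against WT 24 months, KO 6 months against WT 6 months and WT 24 months against WT 6 months, with no call. At the 31.2 percentile of all probe sets its signal leaves little room to see a decrease.

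Cdkn1a, which encodes the CIP/KIP inhibitor p21 and is induced by p53, was lower in KO 6 months than in WT 6 months on both probe sets. On 1424638_at it had 7.31, 7.61 and 7.65 in KO 24 months tumor, 7.05, 6.88 and 6.83 in KO 6 months, 7.68, 9.62 and 7.89 in WT 24 months, and 9.72, 9.90 and 7.99 in WT 6 months. KO 6 months was the lowest group with a narrow spread, and the wild-type groups each held low and high arrays. KO 6 months differed from WT 6 months by -2.29 (SE 0.52, adjusted p = 0.0148), a 4.88-fold lower intensity, and 1421679_a_at differed by -1.44 (SE 0.4, adjusted p = 0.0379). The call of 1424638_at was lost without KO 6 months replicate 3 or without WT 6 months replicate 1 or 2, and that of 1421679_a_at was lost without any 1 of 7 arrays, with an adjusted p of up to 0.131. In WT 24 months against WT 6 months 1421679_a_at differed by -1.0 (adjusted p = 0.173), and it was called without WT 6 months replicate 3 (-1.46, adjusted p = 0.0266) or without WT 24 months replicate 2 (-1.41, adjusted p = 0.045). In KO 24 months tumor against WT 24 months 1424638_at differed by -0.87 (SE 0.52, adjusted p = 0.446), and by -0.26 (adjusted p = 0.841) without WT 24 months replicate 2, the highest array of its group.

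Cdkn1b, which encodes p27, passed no test. On 1434045_at it had 7.74, 7.31 and 7.50 in KO 24 months tumor, 7.55, 7.49 and 7.03 in KO 6 months, 7.89, 7.48 and 7.68 in WT 24 months, and 7.70, 7.84 and 7.41 in WT 6 months. The 4 groups overlapped, and the difference between KO 6 months and WT 6 months was -0.29 with a 95% interval of -0.67 to 0.09. Its other probe set, 1419497_at, was dim, with a mean of 4.08.

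Myc was lower in KO 6 months than in WT 6 months. Its log2 intensity was 7.19, 7.52 and 8.28 in KO 24 months tumor, 6.80, 7.02 and 6.54 in KO 6 months, 6.75, 8.37 and 8.09 in WT 24 months, and 8.42, 8.15 and 8.37 in WT 6 months. WT 24 months held 1 low and 2 high arrays and overlapped all 3 other groups. KO 6 months differed from WT 6 months by -1.53 (SE 0.37, adjusted p = 0.0206), a 2.88-fold lower intensity, and WT 24 months differed from WT 6 months by -0.57 (SE 0.37, adjusted p = 0.454). KO 24 months tumor differed from KO 6 months by 0.88 (SE 0.37, adjusted p = 0.797) without a call. The call of Myc was lost without KO 6 months replicate 1 or 3 or WT 6 months replicate 1 or 3, with an adjusted p of up to 0.0802.

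E2f8 was lower in both groups set against WT 6 months. On 1436186_at it had 6.14, 6.47 and 6.08 in KO 24 months tumor, 5.65, 5.51 and 5.43 in KO 6 months, 5.88, 5.13 and 5.91 in WT 24 months, and 6.14, 7.07 and 7.39 in WT 6 months. The lowest WT 6 months array was level with the KO 24 months tumor arrays and above all arrays of KO 6 months and WT 24 months. KO 6 months differed from WT 6 months by -1.33 (SE 0.29, adjusted p = 0.0117) and WT 24 months differed from WT 6 months by -1.23 (SE 0.29, adjusted p = 0.0213). The second of these calls was lost without WT 6 months replicate 2 or 3 or WT 24 months replicate 2, and adjusted p was 0.15 when only these groups were fitted. A second probe set, 1444319_at, was dim, with a mean of 3.97, and differed by -0.22 and -0.1 without a call.

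E2f7 varied mainly within WT 24 months. It had 4.79, 5.76 and 5.13 in KO 24 months tumor, 4.66, 5.00 and 4.78 in KO 6 months, 6.35, 8.25 and 5.39 in WT 24 months, and 4.87, 4.77 and 4.77 in WT 6 months. WT 24 months lay above WT 6 months in every array, with replicate 2 far above the rest. The log2 difference of 1.86 (SE 0.53, adjusted p = 0.0528) between WT 24 months and WT 6 months missed the threshold, and adjusted p ran from 0.00399 to 0.224 over the alternatives. Without WT 24 months replicate 3 it was 2.50 (adjusted p = 0.00399), and without replicate 2 it was 1.07 (adjusted p = 0.0541). Against WT 24 months, KO 24 months tumor differed by -1.44 (SE 0.53, adjusted p = 0.244), and by -0.64 (adjusted p = 0.388) without replicate 2.

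The age change, 24 months against 6 months, was compared between the genotypes as labelled, as the difference in KO minus that in WT. Of the 23 probe sets 2 passed, both above 0, against 1.72% of all probe sets in that direction, and 0 passed below 0, against 1.42%. Cdkn2c had 2.24 (SE 0.3, adjusted p = 0.00194), from an age difference of 0.06 in KO and -2.17 in WT. E2f8 had 1.92 (SE 0.41, adjusted p = 0.027), from 0.7 in KO and -1.23 in WT. Giving each of the groups KO 24 months tumor and WT 6 months the label of the other would leave this contrast as it is. Both groups enter it with the same sign. Its parts would change. The age difference in KO would be KO 6 months against WT 6 months with the sign turned (as labelled, -2.34 for Cdkn2c and -1.33 for E2f8). That in WT would be KO 24 months tumor against WT 24 months with the sign turned (as labelled, -0.1 and 0.59). The call of E2f8 was lost without any 1 array of KO 24 months tumor or KO 6 months, or without WT 6 months replicate 2. It was also lost with the replicate block, and its adjusted p reached up to 0.0771 over the alternatives.

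Other G1 and G1/S regulators (23 genes, each by its brightest probe set) were mostly not called. In KO 6 months against WT 6 months 1 was higher and 2 were lower, with a median log2 difference of -0.09 beside 0.0464 over all 18194 genes, where 9% were called higher and 8.04% lower. Rbl2, which encodes the RB-family protein p130, rose by 0.7 (adjusted p = 0.00166), while Cdk6, a partner kinase of the D cyclins, had -1.04 (adjusted p = 0.00666) and Rbl1, which encodes the RB-family protein p107, had -1.34 (adjusted p = 0.0394). In WT 24 months against WT 6 months 0 were higher and 2 lower, with a median of -0.16 beside 0.0131 over all genes, where 6.22% were called higher and 7.07% lower. These were Cdk6 at -1.27 (adjusted p = 0.00246) and Cdk4 at -0.52 (adjusted p = 0.00794). Without WT 24 months replicate 3 the counts were 2 higher and 6 lower, with a median of -0.28. The shares of all genes called without this array are not given here, so these counts have no background beside them.

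S and M phase genes act after the G1 checkpoint. Of 22 measured, 17 were lower and 0 higher in KO 6 months than in WT 6 months, with a median of -1.3, and 9 were lower and 0 higher in WT 24 months than in WT 6 months, with a median of -1.05 (13 lower without WT 24 months replicate 3). Over all genes, 8.04% and 7.07% were called lower in these comparisons with all arrays in the fit. The share without WT 24 months replicate 3 is not given here. The 13 that did not pass in WT 24 months included Rrm2, a subunit of ribonucleotide reductase, at 0.22 and Tyms, which encodes thymidylate synthase, at -0.02. Aurka, a mitotic kinase, had -1.63 (adjusted p = 1.13e-05) and -1.29 (adjusted p = 7.03e-05), and Ccnb2, a mitotic cyclin, had -2.77 (adjusted p = 2.21e-05) and -2.34 (adjusted p = 8.73e-05) in these comparisons. Birc5, which encodes survivin, had -2.43 and -2.35. The mean of the list lay between 5.72 and 5.83 in KO 24 months tumor, 5.72 and 5.8 in KO 6 months, 5.77 and 6.55 in WT 24 months, and 6.98 and 7.21 in WT 6 months, so that WT 6 months was separate, with WT 24 months replicate 3 the highest of the others.

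**Figure D3:**
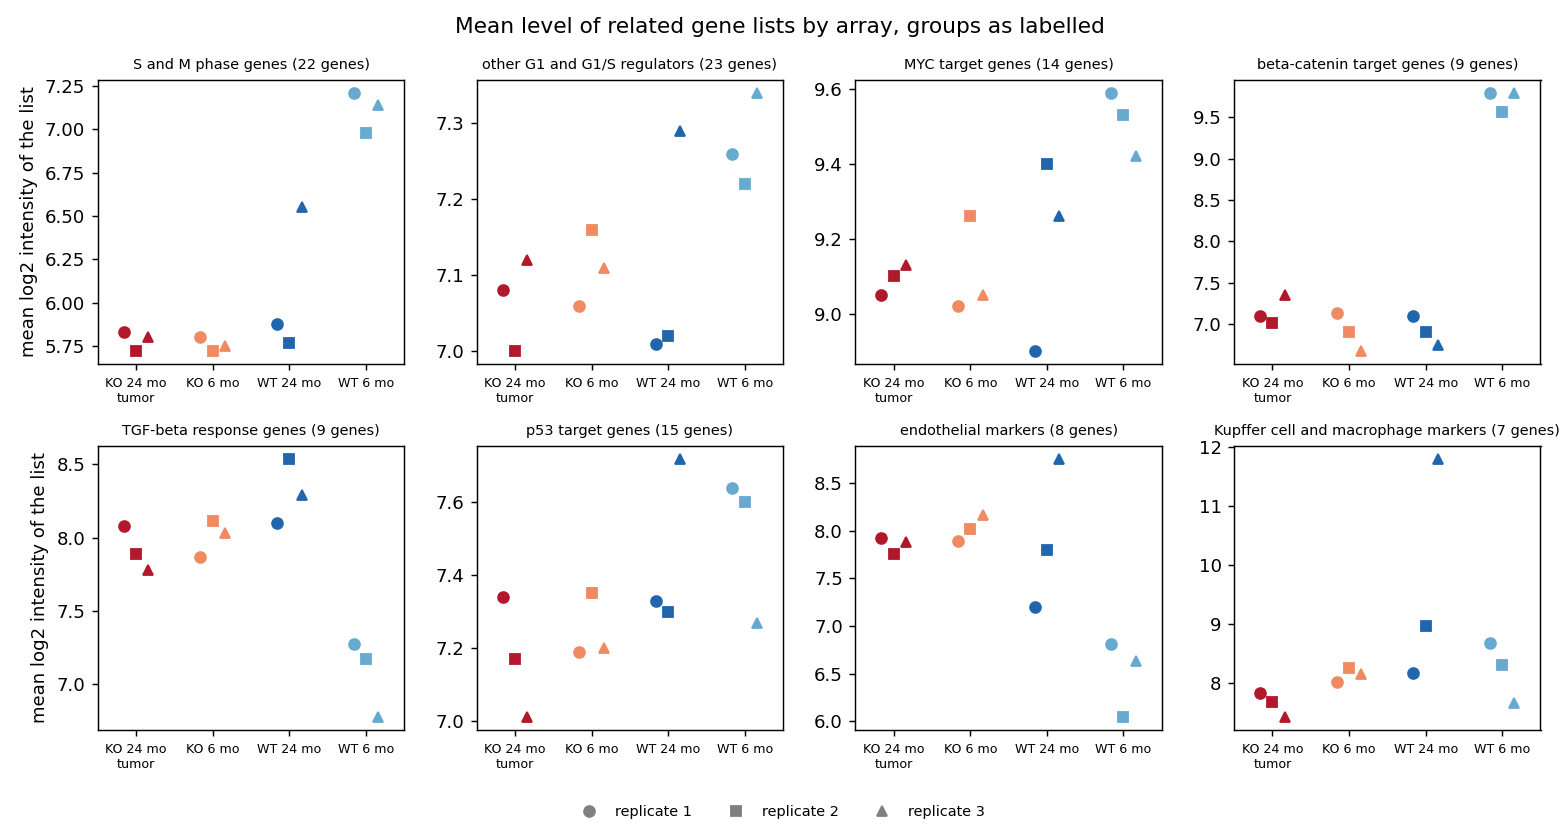
Mean log2 intensity (y axis) of 8 gene lists in each array by labelled group, with replicates as symbols. The 3 WT 6 months arrays are separate from the other 9 for the S and M phase, MYC target (by 9.42 against 9.4) and beta-catenin target lists, which they lead, and for the TGF-beta response and endothelial lists, where they are lowest.

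Partners and targets of MYC were counted in the same way. Over all genes, 8.04% were called lower in KO 6 months and 7.07% in WT 24 months, each against WT 6 months. In KO 6 months against WT 6 months, 6 of 14 MYC target genes were lower and 0 higher, with a median of -0.44, and in WT 24 months against WT 6 months 3 were lower and 0 higher, with a median of -0.38. They encode proteins of ribosome production, such as the nucleolar methyltransferase Fbl (-0.47, adjusted p = 0.00572, and -0.6, adjusted p = 0.0015). Of 9 genes of the MAX network, which holds the partners and antagonists of MYC, 2 were higher and 1 lower in the first comparison and 1 was higher in the second, beside 9% higher and 8.04% lower of all genes in the first and 6.22% higher in the second. Mxi1, a MYC antagonist, had 0.55 (adjusted p = 0.0178) and 0.65 (adjusted p = 0.00915).

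Target genes of 3 pathways known to act on some of the members were also counted. Whether these pathways acted on the members in these livers was not tested. All 9 measured beta-catenin target genes, a pathway that can induce Ccnd1 and Myc, were lower in both comparisons, with medians of -2.99 in KO 6 months and -2.74 in WT 24 months, each against WT 6 months. Nkd1, a feedback inhibitor of the pathway, had -5.15 (adjusted p = 3.43e-08) and -5.17 (adjusted p = 4.88e-08). Of 15 measured p53 target genes 1 was lower in each comparison, no more than the 8.04% and 7.07% of all genes called lower, Eda2r (-0.7, adjusted p = 0.0178) in the first and Plk2 (-0.8, adjusted p = 0.0231) in the second, and none was higher (without WT 24 months replicate 3 the second count was 0, with Plk2 at an adjusted p of 0.0531), while Mdm2, a direct target and inhibitor of p53, had -0.22 and -0.32 without a call. Of 9 TGF-beta response genes, a pathway that can induce Cdkn2b and repress Myc, 4 were higher in the first comparison and 5 in the second, with medians of 0.68 and 0.82, the second of which was 0.47 without WT 24 months replicate 3. Over all genes, 9% and 6.22% were called higher in these comparisons. Ccn2, a matrix-associated growth regulator, rose by 2.45 (adjusted p = 0.00125) and 2.95 (adjusted p = 4.16e-04), and Smad7, the inhibitory SMAD, by 1.43 and 1.48. In KO 24 months tumor against WT 24 months no gene of the cell cycle, MYC, MAX, beta-catenin, TGF-beta and p53 lists was called other than the p53 target Trp53inp1 (-1.27, adjusted p = 0.0419), where 0.341% of all genes were called higher and 0.231% lower, and in KO 24 months tumor against KO 6 months none was, against 0.033% and 0% of all genes. Without WT 24 months replicate 3, Trp53inp1 lost its call in the first of these (-1.09, adjusted p = 0.0686) and Rrm2 gained one (-1.76, adjusted p = 0.0156).

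Markers of some other cell types moved with these comparisons. Endothelial markers were higher against WT 6 months for 6 of 8 genes in KO 6 months and for 7 of 8 in WT 24 months, with medians of 1.67 and 1.49, and their mean ran from 7.76 to 7.93 in KO 24 months tumor, 7.89 to 8.17 in KO 6 months, 7.2 to 8.76 in WT 24 months and 6.04 to 6.81 in WT 6 months. Of 7 stellate cell and fibroblast markers 3 were higher in each. Of 7 Kupffer cell and macrophage markers 0 were called in KO 6 months against WT 6 months, and 1, Clec4f, was higher in WT 24 months. Of 7 lymphocyte markers 1 was higher in KO 6 months and 0 were called in WT 24 months. Neutrophil markers (4 genes) had 0 calls in either, and of 5 biliary and progenitor markers 1 was higher in each. Over all genes, 9% were called higher in KO 6 months and 6.22% in WT 24 months, each against WT 6 months.

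For the 6 members with a call, the genes with the most similar profile were found by the root-mean-square difference of centred log2 values over the 12 arrays. For Cdkn2c these were Birc5 (0.18) and Ube2c (0.2), an enzyme of the anaphase-promoting pathway, where Cdkn2c itself varied by 1.01 about its mean. For Ccnd1 they were Atf3 (0.37) and Anxa5 (0.41) with 1.17 for Ccnd1, and for Ccnd2 Serpinh1 (0.22), a collagen chaperone, and Setd7 (0.24) with 0.62 for Ccnd2. For Myc they were Gpcpd1 (0.3) and Pvt1 (0.35), a noncoding gene near Myc on the same chromosome, with 0.7 for Myc. For E2f8 they were Cenpt (0.26), a centromere protein, and Igf2r (0.29) with 0.63 for E2f8. For Cdkn1a the closest genes were distant, Slc22a29 (0.55) and Smpd3 (0.57) with 1.06 for Cdkn1a.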

How the data were processed

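Liver RNA of 12 mice was measured with Affymetrix GeneChip arrays. For each probe set the deposited value is a log2 intensity, which the authors made by RMA (background correction, quantile normalization and summary) in the Simpleaffy package, whose version is not given in the sources used here. Array medians lay between 5.41 and 5.45, and the number of arrays limits the precision.

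Groups were taken from the labels. Probe sets were named by the annotation supplied with the series (34958 name 1 gene, 932 several and 9211 none listed), and gene lists used the probe set with the highest mean of each gene. A linear model of the 4 group means over all 12 arrays was fitted with limma 3.58.1 in R 4.3.3 to all 45101 probe sets, with two-sided moderated tests and Benjamini-Hochberg adjustment over all of them. The fit was tested on simulated data. The SAM algorithm named in the methods was not run. Its thresholds (fold of 3, 0.05) were used as a second rule. Motifs were counted and figures drawn with Python 3.11.15 and matplotlib 3.10.9. Standard errors and intervals are limma's, and each SD is over the 3 arrays of a group.

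The probe sets named are all those of the 10 members, with up to 3 genes of each other list by adjusted p, and the 2 most similar genes of each called member. The members and lists were chosen with earlier results of these data known, and the counts of lists are descriptions. Clec4f, Afp, Apob, Rrm2 and Tyms were singled out after their values were seen. Alternatives were a replicate block, a fit of the 2 groups compared, removal of dim probe sets, a trended and robust variance prior, centring on the array median or on 4 housekeeping genes, 1 value per gene, and leaving out each array. List counts without WT 24 months replicate 3 were added after seeing the data, and the shares of all genes called without that array are not given.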

Additional observations from a re-analysis of the deposited data

Results flagged for a closer look

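Cdkn2c and E2f8 were marked because their age change differed between the genotypes as labelled, by limma's test of the difference itself. For Cdkn2c (1416868_at) the age change in KO minus that in WT was 2.24 on the log2 scale (SE 0.3, adjusted p = 0.00194 by limma), and it ran from 2.03 to 2.44 over 18 alternatives, in all of which it passed. For E2f8 (1436186_at) it was 1.92 (SE 0.41, adjusted p = 0.027), with a range of 1.66 to 2.29, and it passed in 10 of 18 alternatives. The KO 24 months tumor group differs from KO 6 months in tissue as well as in age, so these cannot be told apart in this contrast. Group means of Cdkn2c were 6.69 in KO 24 months tumor, 6.63 in KO 6 months, 6.79 in WT 24 months and 8.97 in WT 6 months. Those of E2f8 were 6.23, 5.53, 5.64 and 6.87 in the same order. Iqgap2 went against the labels of KO 24 months tumor and WT 6 months, so which group departs rests on those labels.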

How the results depend on the processing

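Of the differences of single probe sets recomputed under each alternative, 1989 stayed on the same side of the threshold, 55 lost their call and 18 gained one, and no called value changed sign. Among the uncalled, 26 differences changed sign under at least 1 alternative, none larger than 0.4 on the log2 scale before or 0.37 after. In KO 6 months against WT 6 months, the count of higher probe sets was 2, 6 when only the 2 groups were fitted, and 0 to 5 without single arrays, and that of lower ones was 8, and 5 to 8 without single arrays (5 without KO 6 months replicate 3 or WT 6 months replicate 1). By genes, 1 was higher, and 0 with the brightest probe set per gene. In WT 24 months against WT 6 months, the count of higher probe sets was 0, 1 with the replicate block or with housekeeping centring (E2f7 in both), and 0 to 1 without single arrays, and by genes it was 1 with the brightest probe set or the mean of probe sets. The count of lower ones was 5, 2 when only the 2 groups were fitted, and 2 to 5 without single arrays (2 without WT 6 months replicate 2, 3 without WT 6 months replicate 1 or WT 24 months replicate 1 or 2). In the contrast of age changes, the count of probe sets above 0 was 2, 1 with the replicate block, which lost E2f8, and 1 to 2 without single arrays. The cause was not tested. Counts in the other comparisons stayed at 0. The shares of all probe sets called under the alternatives are not given here, so a changed count can reflect a change in all probe sets.

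Replicate numbers are shared between groups, and the labels do not say whether they pair the animals. Deviations of same-numbered arrays from their group means had correlations of -0.236 to 0.188. Differently numbered arrays were not compared, so these values cannot exclude a pairing. The block is given as an alternative only. Housekeeping centring moved all differences by 0.102 in KO 6 months against WT 6 months and by 0.1479 in WT 24 months against WT 6 months. Dim probe sets near the bottom of the array's signal, such as those of Cdkn2b, limit what a decrease can show.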
